A study of Mus musculus with 72 samples.

Results

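A set of 10 genes of blood lipoprotein transport were followed across liver, kidney, heart and brain of ageing mice fed the oxidised or the reduced form of coenzyme Q10. They were the apolipoproteins Apoa1, Apoa2, Apoa4, Apoa5, Apob, Apoc3, Apoe, Apoh and Apom and the phospholipid transfer protein Pltp, 10 of the 18193 genes named on the array. The members were fixed by name, through the gene symbol of the platform table, and the rule itself uses no measured value, although the list was chosen with earlier results of these data known. They had 18 probe sets, and 6 of the genes had more than 1. Each gene is given by its brightest probe set over all arrays, and the other probe sets are named where they differ.

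The animals were female mice of the senescence accelerated prone strain SAMP1, kept free of specific pathogens and 4 weeks old at the start. Their diet was plain control feed or held Q10, which is the oxidised coenzyme, or QH2, its reduced form ubiquinol, each compound at 500 mg per kg body weight a day. They were fed for 6 or 14 months and were then 7 or 15 months old. Total RNA of each tissue was labelled with biotin and measured on Affymetrix mouse arrays, 72 in all, as 24 groups of 3 mice. All animals shared the SAMP1 background and no other strain was used here, so the values describe that strain and not ageing in mice at large. Age, time on the diet and any difference in array handling between the 6-month and the 14-month animals cannot be told apart.

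Apolipoproteins are the protein part of the particles that carry lipid in blood. Apob is the structural protein of very low density lipoproteins, Apoa1 and Apoa2 are the main proteins of high density lipoproteins, and Apoe is the ligand through which remnants are taken up. Apoa5 and Apoc3 act in opposite directions on the clearance of triglycerides, Apom carries sphingosine 1-phosphate on high density lipoproteins, and Pltp moves phospholipid between particles. Apoa2 has a particular standing in this strain because its product is the precursor of the senile amyloid that SAMP1 mice deposit. Liver is the main source of most of these proteins, Apom is also made in the proximal tubule of the kidney, and Apoe and Pltp are made in many cell types, among them astrocytes and macrophages.

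The sequences upstream of Pltp and Apom are shown because the changes of a member with diet lay in these genes. They are the 250 bases before the annotated start, 5' to 3' on the gene's own strand, from RefSeq on GRCm38.p6. Pltp lies on the minus strand at chr2:164857709-164857958 and Apom on the minus strand at chr17:35131802-35132051. Capitals mark a match to 1 of 5 short motifs, searched on both strands.

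Pltp: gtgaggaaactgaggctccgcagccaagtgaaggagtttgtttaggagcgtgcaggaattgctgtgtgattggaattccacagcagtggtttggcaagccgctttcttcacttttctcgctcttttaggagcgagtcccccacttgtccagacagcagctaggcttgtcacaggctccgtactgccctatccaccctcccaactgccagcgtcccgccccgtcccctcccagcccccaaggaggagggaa
Apom: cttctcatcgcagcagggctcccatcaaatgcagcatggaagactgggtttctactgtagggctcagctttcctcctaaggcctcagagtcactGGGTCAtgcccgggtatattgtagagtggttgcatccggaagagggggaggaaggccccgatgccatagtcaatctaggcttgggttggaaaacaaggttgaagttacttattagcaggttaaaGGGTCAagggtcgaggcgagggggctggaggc

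The first motif, AGGTCA, and the second, spelled GGGTCA, are half-sites of nuclear receptors. The half-site of HNF1 was searched as GTTAAT. The site of HNF4 was searched as CAAAGTCCA and the TATA box as TATAAA. Apom held GGGTCA at positions -156 and -32 from the start, and 13.7% of all 32851 promoter windows of 300 bases held that motif. The printed stretch of Pltp held no match, and had 9 CG dinucleotides against 6 in that of Apom. Of the 9 members with a window, Apoa2 and Apoh held AGGTCA (16.3% of all windows), Apoa5, Apoe and Apom held GGGTCA, and Apoe held GTTAAT (7.1%). TATAAA lay in windows of Apoa2, Apoa5, Apob, Apoe and, after the start, Pltp, and was in 13.6% of all windows. No member held CAAAGTCCA, which was in 0.475% of windows. A match is a description of these letters and not a site of binding. By position, Apoa1, Apoc3, Apoa4 and Apoa5 stood next to each other on chromosome 9, Apoe stood between Apoc1 and Tomm40 on chromosome 7, and Pltp and Apom had no other member as a neighbour.

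Signals are linear intensities. An array's mean was between 84.6 and 172 among livers, 132 and 262 among kidneys, 108 and 279 among hearts and 140 and 279 among brains, so arrays were brought to a common distribution within each tissue before diets were compared. The labels of the tissues were borne out by markers: 8 of 9 hepatocyte genes were brightest in liver (Ttr was brightest in brain), 6 of 6 proximal tubule genes in kidney, 6 of 6 cardiomyocyte genes in heart and 5 of 5 neuronal genes in brain. The Actb 3' to 5' signal ratio, which is higher where RNA is degraded or copied short, lay between 1.66 and 1.95 for brains, 1.68 and 2.22 for hearts, 1.64 and 3.37 for kidneys and 1.59 and 7.36 for livers. The precision given below is limited by 3 arrays a group, and more so for dim probe sets. Tissue is a mixture of cells, so a lower signal from fewer cells of a type and from less RNA per cell cannot be told apart.

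By the median on a scale common to 72 arrays, all 10 genes were brightest in liver, and they fell into 3 patterns across the other tissues. For Pltp that order depended on the scale and the probe set. To compare tissues, the 72 arrays were set to 1 distribution, and each level below is the median over the 18 arrays of a tissue with the lowest and highest. Apoa1 had a median signal of 13300 in liver (10543 to 13300) and of 9.19 (1.07 to 122), 2.13 and 1.69 in kidney, heart and brain. In liver it was the brightest of all probe sets on many arrays, so its level there sits at a ceiling. Apoa2 had 11872 in liver (10819 to 12668) and 27.3 (12.4 to 208), 24.2 and 6.31 in kidney, heart and brain. These structural proteins of high density lipoprotein were thus bright in liver and near the dim end of the array elsewhere.

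The same held for Apob at 5588 in liver (4160 to 6442) and 16.1, 8.44 and 4.91 in kidney, heart and brain. It held for the triglyceride regulator Apoa5 at 6263 in liver (3728 to 6962) and 9.52, 12.5 and 4.64 elsewhere, and for Apoh, beta-2-glycoprotein 1, at 8051 in liver (7761 to 8658) and 15.6, 6.13 and 10.98. Apoa4, a protein of intestinal and hepatic lipoproteins, was lower in liver at 1324 (1073 to 2545), with 47.3 in kidney, 6.99 in heart and 3.63 in brain. Apoc3, an inhibitor of lipoprotein lipase, had 8604 in liver (7109 to 9546) and 166 (104 to 236), 14.7 and 14.4 in kidney, heart and brain.

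Apom was the gene shared by liver and kidney. Its median was 2899 in liver (1899 to 3707) and 1290 in kidney (477 to 1694), against 0.970 in heart and 0.823 in brain. Apoe and Pltp were measurable in every tissue. Apoe had 9707 in liver (9024 to 10427), 6299 in brain (5549 to 7450), 1310 in heart (1128 to 1764) and 866 in kidney (612 to 3171). Pltp had 998 in liver (512 to 5021), 873 in brain (656 to 1286), 778 in heart (624 to 1326) and 254 in kidney (161 to 435). The ranges of Pltp in liver, heart and brain overlapped, whereas those of Apom in liver and kidney did not.

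**Figure D1:**
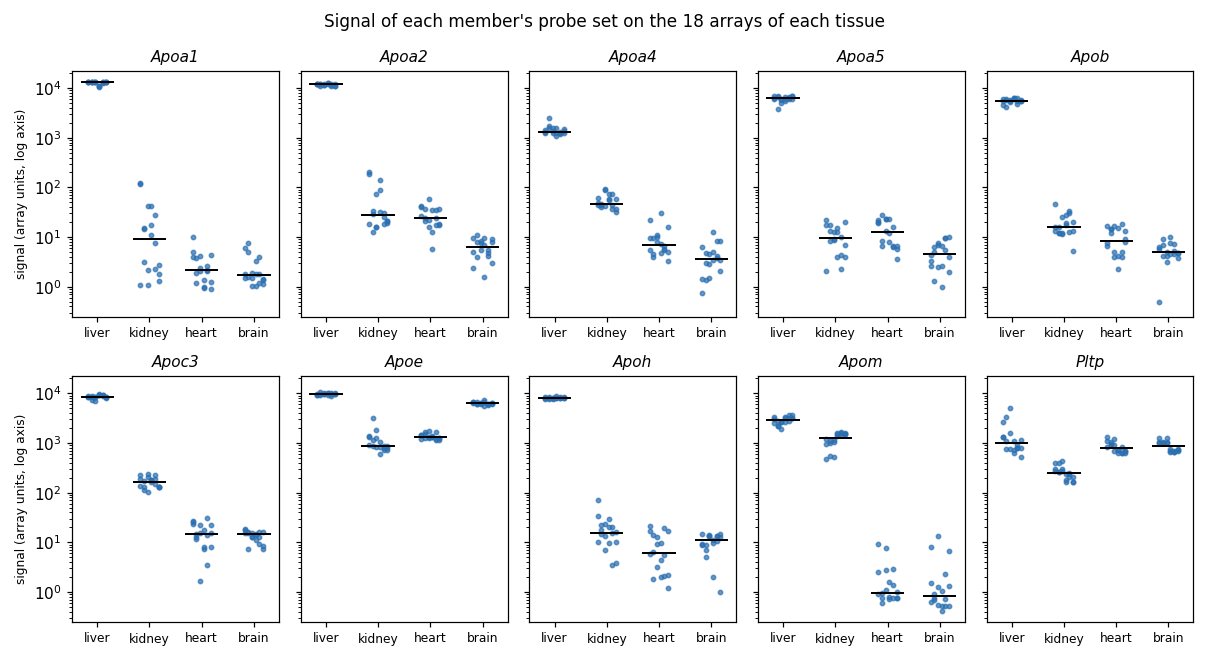
Signal of each of the 10 genes on every array (points) by tissue, on a log axis and on the scale common to 72 arrays, with a line at the median of the 18 arrays. Apoe and Pltp lie within the upper range in all 4 tissues, Apom in liver and kidney, and the other 7 genes stand far higher in liver than elsewhere.

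The fit over 72 arrays (limma, adjusted over all probe sets) put liver above each other tissue for 10 of 10 members, with 71.7%, 80.8% and 85.7% of all probe sets called against kidney, heart and brain. The smallest of these differences were those of Pltp, 0.48 ± 0.07 (SE) against heart and 0.41 ± 0.07 against brain on the log2 scale, and that of Apoe against brain, 0.61 ± 0.07. Apom was 1.32 ± 0.21 higher in liver than in kidney. The 2nd probe set of Pltp did not separate liver from heart (0.06, 95% interval -0.13 to 0.24). Kidney and heart differed in 9 members, 7 higher and 2 lower in kidney, where 78.4% of all probe sets were called. Apoe (-0.42) and Pltp (-1.70) were the lower ones, and Apom was 8.81 higher.

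Kidney and brain differed in 10 members, 8 higher and 2 lower in kidney (81.8% of all probe sets), with Apoe 2.64 and Pltp 1.78 higher in brain. Heart and brain differed in 5 (85.9%). Apoa2, Apoa4, Apoa5 and Apob were higher in heart, all at dim signals, and Apoe was 2.23 higher in brain. Pltp did not pass between heart and brain (-0.07, 95% interval -0.22 to 0.08, adjusted p = 0.36), although its 2nd probe set was 0.44 higher in heart. Differences of members that are dim in a tissue depend on the offset of 1: with an offset of 16, Apom in liver minus heart went from 10.13 to 7.32. Whether arrays of different tissues came from the same mice is not given in the labels, and the fit treats them as separate.

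Tests of diet and time were run within a tissue, on probe sets whose mean signal lay above the 40th percentile. All 10 members passed this filter in liver, and 9 in kidney, all but Apoa5. Apoa1 passed in kidney by its mean, which a few bright arrays named below raised, while its median of 9.03 lay under the filter level of 11.5. In heart 5 passed (Apoa2, Apoa5, Apoc3, Apoe and Pltp) and in brain 3 (Apoc3, Apoe and Pltp). A gene was called at adjusted p under 0.05 over all 27022 probe sets tested. In all, 5 of 162 diet tests of members were called: 2 of 54 for Q10 against control, 0 of 54 for QH2 against control and 3 of 54 for QH2 against Q10. By tissue and time, these called 0% to 6.21%, 0% to 0.192% and 0% to 9.74% of all probe sets. Few probe sets of any kind were thus called for QH2 against control. These comparisons share groups, so they are not separate counts of evidence. The 5 calls lay in Pltp of the liver and in Apom and Pltp of the kidney, all at 14 months.

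Pltp rose in the liver on Q10 at 14 months and did not rise on QH2. Its signal was 1049, 854 and 1332 in the 3 control livers at 14 months, 2269, 2847 and 4569 on Q10, and 1075, 539 and 554 on QH2. Every Q10 liver was above every control and every QH2 liver, and the QH2 livers overlapped the controls. At 6 months, where 0 of 10 members were called beside 0.810% of all probe sets for Q10 and 0% for QH2 against control, the signal was 443, 599 and 592 on control, 521, 593 and 345 on Q10, and 878, 681 and 903 on QH2. The QH2 livers were then the highest, without overlap with either of the other groups.

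Pltp was 1.54 ± 0.28 higher on the log2 scale on Q10 than on control at 14 months, a fold of 2.91 (limma, 95% interval 0.96 to 2.12, adjusted p = 0.0032). It was the 1 member of 10 called in a comparison that called 6.21% of all probe sets. QH2 against control gave -0.63 (-1.21 to -0.05, adjusted p = 0.77), with 0 of 10 members and 0% of all probe sets called, although 1673 probe sets had an unadjusted p under 0.05. QH2 against Q10 gave -2.17 (-2.75 to -1.59, adjusted p = 0.00032), again 1 of 10 members beside 9.74% of all probe sets.

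At 6 months QH2 against Q10 was 0.78 (0.20 to 1.36) and did not pass (adjusted p = 0.25), with 0 of 10 members beside 0.988% of all probe sets. QH2 against control at that time was 0.59 (0.01 to 1.18, adjusted p = 0.70). The effect of Q10 on Pltp was 1.73 ± 0.39 higher at 14 than at 6 months (adjusted p = 0.026, 2.33% of all probe sets called), a call kept in 6 of the 12 fits that each left out 1 array. It was lost without control 6-month array 2 (adjusted p = 0.060) or 3 (0.051), Q10 6-month array 3 (0.071), control 14-month array 1 (0.059) or 2 (0.087), or Q10 14-month array 3 (0.077). The difference itself lay between 1.45 and 1.95 in these fits, and it was not called as deposited (1.80, adjusted p = 0.22), with no intensity trend in the fit (1.73, adjusted p = 0.076) or with the Actb covariate (2.00, adjusted p = 0.27). With Q10 14-month array 1 as the only array of its group it was 1.296.

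The 2nd probe set of Pltp moved the same way. It read 203, 175 and 246 in the control livers at 14 months, 600, 829 and 1659 on Q10, and 200, 84.9 and 124 on QH2. Q10 livers did not overlap either group, and the log2 difference was 2.18 against control (adjusted p = 0.00064) and -2.86 for QH2 against Q10 (adjusted p = 0.00026). The call on Q10 was kept in 6 of 6 fits that left out an array of either group, at 1.26 to 1.76. It was lost when only the 6 arrays compared were fitted (1.54, adjusted p = 0.084) and when the Actb ratio was a covariate (1.77, adjusted p = 0.20), and so was that of QH2 against Q10 (adjusted p = 0.078 and 0.42).

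**Figure D2:**
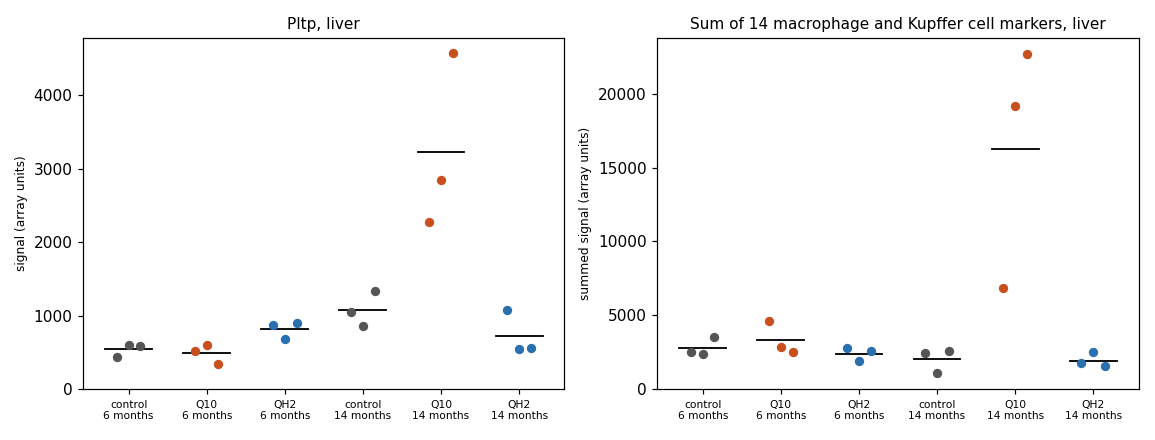
Signal of Pltp in each liver (points, line at the group mean of 3) in the 6 groups, beside the summed signal of 14 macrophage and Kupffer cell markers. The Q10 livers at 14 months, at 2269 to 4569 for Pltp, stand above all other groups in both panels.

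Markers of immune cells moved with Pltp in the same livers. All 14 of 14 macrophage and Kupffer cell markers were called higher on Q10 than on control at 14 months (median 3.06 on the log2 scale, against -0.10 over all probe sets). Their summed signal was 1103 to 2578 on control, 6837, 19157 and 22707 on Q10 arrays 1, 2 and 3, and 1528 to 2511 on QH2, with no marker under the filter level on any Q10 array. All 4 B cell markers and 6 of 7 neutrophil markers were called higher too. The B cell sum was 47.5 to 66.0 on control and 195 to 2890 on Q10, and the neutrophil sum 93.3 to 669 and 322 to 14983. None of 9 hepatocyte markers was called (median -0.03), and their sum was 69623 to 71937 on control and 62228 to 70079 on Q10.

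The Actb ratio also differed, at 3.49, 3.88 and 4.11 in the control livers, 3.05, 1.59 and 1.98 on Q10 and 7.36, 3.67 and 5.01 on QH2. Q10 array 1, the lowest of its group in macrophage markers, was 1.11 above the control mean for Pltp when arrays 2 and 3 were left out. That is a single array, so no test was read from it. The part of these cells in the rise of Pltp was not tested. The fit with the Actb ratio as covariate, in which the call was lost, is given above. The ratio of every Q10 liver lay below that of every control, so diet and RNA quality cannot be told apart there.

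The other 9 members showed no called change with diet in liver at either time. Apoa5 had the next smallest p: its signal was 5758, 6850 and 5407 on control at 14 months, 6106, 3199 and 4654 on Q10, and 6659, 6460 and 5913 on QH2. The groups overlapped, with array 2 of Q10 the lowest of all livers. Apoa5 was 0.41 lower on Q10 than on control (interval -0.77 to -0.05, adjusted p = 0.17) and 0.49 higher on QH2 than on Q10 (0.13 to 0.86, adjusted p = 0.076). Leaving out each array in turn gave -0.63 to -0.17 for the former and 0.26 to 0.71 for the latter, and both passed without Q10 array 1 (adjusted p = 0.0054 and 0.0019) and with array weights (0.00097 and 0.00031). With the Actb ratio as covariate they were -0.08 and -0.0024.

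Apoc3 was 9222, 8830 and 8830 on QH2 and 8890, 7438 and 7088 on Q10, a difference of 0.21 (-0.05 to 0.46). For Q10 against control it was called in 0 of 6 fits without 1 array (-0.28 to -0.12). Of 16 alternative settings, 1 called it lower on Q10 (limma, adjusted p = 0.00030). Apoh was lower on all 3 Q10 livers than on all 3 controls, by 0.08 (adjusted p = 0.74). Apoa1 read 14446 on all 9 livers at 14 months because it was the brightest probe set on each, so no diet difference could show at this scale. As deposited, its signal over the 18 livers ran from 9094 to 18568. For Apoa2, the amyloid precursor gene of this strain, Q10 against control at 14 months was -0.04 (interval -0.29 to 0.20), QH2 against control -0.02 (-0.26 to 0.23) and QH2 against Q10 0.03 (-0.21 to 0.27). For Apoe the same comparisons gave -0.05, -0.03 and 0.02, each with a half-width near that of Apoa2. A 2-fold fall lay outside the intervals of both. A 2-fold rise could not show, since the scale ends at 14446 in liver, beside medians of 12589 for Apoa2 and 9953 for Apoe.

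Apob and Apom of the liver stayed within their spread on the main probe sets. Apob was 5033, 5800 and 5075 on control, 5641, 3645 and 5381 on Q10 and 4019, 5298 and 4765 on QH2 at 14 months. Its 2nd, dimmer probe set was 2513, 1642 and 2049 on Q10 against 619, 1512 and 940 on QH2, without overlap, and was called lower on QH2 (-1.09, adjusted p = 0.015). The brighter probe set gave -0.04 (-0.39 to 0.31) for the same comparison, so the pair disagreed. Apom was 2520, 2385 and 1616 on control, 2118, 1844 and 2275 on Q10 and 2819, 1883 and 2284 on QH2, with all groups overlapping.

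Among 33 other genes of lipoprotein assembly, remodelling and uptake, 26 were tested in liver and 3 were called for Q10 against control at 14 months, 1 higher and 2 lower, beside 6.21% of all probe sets. Lpl, the lipoprotein lipase of muscle, fat and macrophages, rose by 1.78 (group means 351 and 96.5, adjusted p = 0.0048). Lipg, endothelial lipase, fell by 1.23 and the receptor Vldlr fell by 1.196. QH2 against Q10 called 6 of 26, beside 9.74% of all: Lipg (1.32), Vldlr (0.98) and Apoc4 (0.61) were higher on QH2, and Lpl (-1.96), the sterol exporter Abcg1 (-1.14) and the Apob mRNA editing enzyme Apobec1 (-0.81) were lower. The list's median was -0.14 on Q10 against control and 0.12 for QH2 against Q10, beside -0.10 and 0.08 over all probe sets. None of 26 was called for QH2 against control, where Mttp (-0.28) and Sar1b (0.22) had the smallest p.

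Of 13 transcription factors listed as regulators of these genes, 0 were called on Q10 against control at 14 months. Rxra was 0.45 and Nr1h4 0.43 lower, at adjusted p of 0.097 and 0.11. Srebf1, the factor of lipogenic genes, was 1.17 higher on QH2 than on Q10 (adjusted p = 0.024).

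In the kidney the member that changed was Apom, which fell on Q10 at 14 months. Its signal was 1057, 1202 and 1140 in control kidneys at 14 months, 509, 580 and 561 on Q10, and 1325, 1076 and 1270 on QH2. The Q10 kidneys lay below every other kidney of the study, and control and QH2 overlapped. At 6 months the values were 1665, 1840 and 1732 on control, 1761, 1764 and 1629 on Q10 and 1480, 1581 and 1669 on QH2, with all groups overlapping. No member was called there, beside 0% of all probe sets for Q10 and 0.192% for QH2 against control.

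Apom was 1.04 ± 0.09 lower on the log2 scale on Q10 than on control at 14 months, a fold of 2.06 (limma, 95% interval -1.23 to -0.86, adjusted p = 1.85e-05). It was 1 of 9 members tested in a comparison that called 0.670% of all probe sets. QH2 against control was 0.11 (-0.08 to 0.29, adjusted p = 0.93), with 0 of 9 members and 0% of all probe sets called and 1577 probe sets at an unadjusted p under 0.05. QH2 against Q10 was 1.15 (0.96 to 1.33, adjusted p = 3.79e-06), 1 of the 2 members of 9 that were called, beside 6.04% of all probe sets. The effect of Q10 was 1.02 ± 0.12 lower at 14 than at 6 months (adjusted p = 0.0050), and Apom's was 1 of 2 probe sets called in that comparison (0.00740%). That change was not called as deposited (-1.10, adjusted p = 1.0) or with no intensity trend in the fit (-1.02, adjusted p = 0.066).

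The 2nd probe set of Apom read 643, 750 and 697 on control at 14 months, 277, 328 and 303 on Q10 and 973, 522 and 786 on QH2. Q10 again overlapped neither group, at -1.20 against control (adjusted p = 0.0034) and 1.28 for QH2 against Q10 (adjusted p = 0.00059). The change of its Q10 effect with time was -1.24 and did not pass (adjusted p = 0.13). Calls on the brighter probe set were kept in 6 of 6 fits without an array of the groups compared (-1.09 to -0.99) and in 12 of 12 for the change with time. The first was lost with the values as deposited (-1.22, adjusted p = 0.23) and when only the 6 arrays compared were fitted (-1.04, adjusted p = 0.096). In the latter fit that of QH2 against Q10 was also lost (1.15, adjusted p = 0.061).

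**Figure D3:**
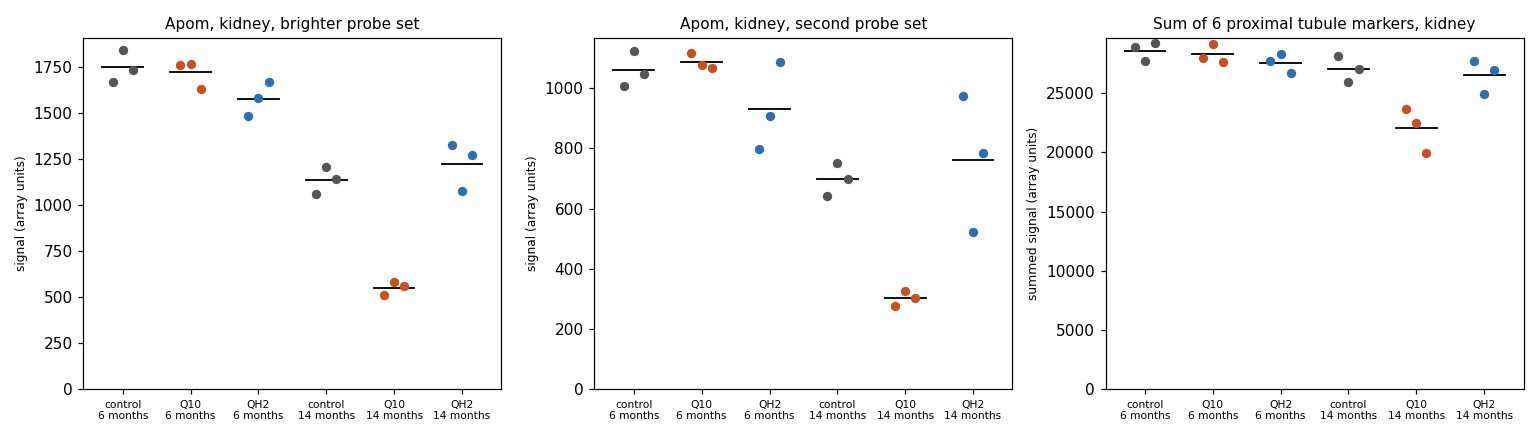
Signal of the brighter and the 2nd probe set of Apom in each kidney (points, line at the group mean of 3) in the 6 groups, beside the summed signal of 6 proximal tubule markers. The Q10 kidneys at 14 months are the lowest for both probe sets (509 to 580 for the brighter) and have the lowest marker sums of the 14-month groups.

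Proximal tubule markers lay lower in the same kidneys by a smaller amount. Their summed signal over 6 genes was 25988 to 28147 on control at 14 months, 19926 to 23699 on Q10 and 24971 to 27730 on QH2. Slc34a1, the tubule's phosphate carrier, was called lower on Q10 than on control (-0.36, adjusted p = 0.044), and Lrp2, the receptor megalin, was at -0.28 (adjusted p = 0.079). For QH2 against Q10, 4 of 6 were called higher (median 0.37). Macrophage markers were not called on Q10 against control (0 of 12, median 0.90), with sums of 2603 to 6570 on control and 3555 to 16782 on Q10. The part of the tubule's share of RNA in the fall of Apom was not tested.

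Pltp of the kidney was higher on Q10 at 14 months than in the other groups. Its signal was 295, 276 and 321 on control, 429, 414 and 464 on Q10 and 327, 280 and 296 on QH2. The Q10 kidneys did not overlap either group. The difference from control, 0.55 ± 0.14 (0.25 to 0.85), did not pass (adjusted p = 0.085), and that of QH2 from Q10, -0.53 (-0.83 to -0.24), did (adjusted p = 0.035). Of the fits without 1 array, the latter was kept in that without Q10 array 1. It was lost without Q10 array 2 (adjusted p = 0.074) or 3 (0.10) and without QH2 array 1 (0.052), 2 (0.079) or 3 (0.087), with the difference from -0.60 to -0.48, and its 2nd probe set was not called (-0.37, adjusted p = 0.38). It was also lost as deposited (-0.52, adjusted p = 0.67), with no intensity trend (0.071), with only the groups compared (0.20) and without the 3 kidneys of highest albumin signal (0.082). Of 12 macrophage markers 4 were called lower on QH2 than on Q10, with sums of 2579 to 3248 and 3555 to 16782 that did not overlap, and their part was not tested.

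Apoe of the kidney was uneven on Q10 at 14 months, with signals of 978, 3323 and 2018, against 1493, 1219 and 1388 on control and 1427, 944 and 920 on QH2. The groups overlapped, and QH2 minus Q10 was -0.80 (adjusted p = 0.096). Macrophage marker sums on the 3 Q10 arrays were 3555, 16782 and 8124, in the same order as Apoe. They were 5344, 2603 and 6570 on control and 3208, 2579 and 3248 on QH2, in neither case in the order of Apoe. The part of macrophages in Apoe was not tested. Without Q10 array 1 QH2 minus Q10 was -1.27 and passed (adjusted p = 0.00056), and without Q10 array 2 it was -0.39 (adjusted p = 0.42). It also passed with array weights (-0.995, adjusted p = 0.0044) and with the Actb covariate (-0.60, adjusted p = 0.027). Apoc3 ran from 109 to 252 over the 18 kidneys, with no call.

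The liver-type members of the kidney were dim and rose together on single arrays. Apoa1 was at 43.8 on control 6-month array 1, 128 on control 14-month array 1 and 121 on QH2 14-month array 1, with 43.1 on control 14-month array 3 and at most 27.3 on the other 14. Apoa2 on the first 3 was 153, 221 and 198, with 76.4 on the 4th and 12.1 to 93.1 elsewhere. Alb, albumin, the main secreted protein of hepatocytes, was 625, 1101 and 1250 on the first 3 arrays. Without those 3 arrays Apom on Q10 against control was -1.10 (adjusted p = 0.00025). Of 23 other lipoprotein genes tested in kidney, 0 were called on Q10 against control at 14 months, with Sar1b (-0.25) and Tm6sf2 (-0.46) at the smallest p. For QH2 against Q10, Apoc1 (1.75) and Pon1 (3.72, means 53.2 and 5.68) were called, both higher on QH2. Of 10 regulators, Rxra (0.51), Srebf1 (0.91) and Creb3l3 (0.70) were called higher on QH2 than on Q10. The summed signal of 5 adipocyte markers, of which Fabp4 was the brightest, also differed between these kidneys. It was 5527, 669 and 4176 on Q10 and 8050, 9482 and 7838 on QH2, without overlap, and 1842, 7889 and 2385 on control. The part of adipocytes in the differences between QH2 and Q10 in kidney was not tested.

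Heart and brain gave no called diet difference for any member tested. In heart 0 of 5 members were called in each of the 6 diet comparisons, beside 0% of all probe sets in 5 of them and 0.0666% for QH2 against Q10 at 6 months. For Q10 against control at 14 months 2619 probe sets had an unadjusted p under 0.05. Apoe came nearest, with 1153, 1171 and 1262 on control at 14 months, 1399, 1630 and 1724 on Q10 and 1344, 1471 and 1162 on QH2. All Q10 hearts were above all controls, at 0.40 ± 0.12 (0.15 to 0.65, adjusted p = 0.22). It was called with the values as deposited (0.76, adjusted p = 0.048), where the median over all probe sets was 0.40, and with array weights (0.44, adjusted p = 0.030). Macrophage marker sums on the 3 Q10 hearts were 4297, 5765 and 6453, in the same order as Apoe. They were 4406, 3427 and 3516 on control and 4499, 3482 and 3118 on QH2, in neither case in the order of Apoe. The part of macrophages in Apoe of the heart was not tested. Pltp of the heart was 782, 1000.2 and 838 on control, 1026, 842 and 1134 on Q10 and 1254, 890.3 and 640.1 on QH2, with the groups overlapping (0.19 on Q10, -0.17 to 0.55). Among the 20 other lipoprotein genes tested in heart, Angptl4, an inhibitor of lipoprotein lipase, was called for QH2 against Q10 at 6 months (2.48, adjusted p = 0.043).

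In brain 0 of 3 members were called in 6 comparisons, beside 0.0111% of all probe sets for QH2 against control at 14 months and 0% in the other 5. The intervals were narrow there: Apoe ran from 5088 to 6474 over the 18 brains, and Q10 against control at 14 months was -0.02 (-0.14 to 0.11). Pltp was 1495, 1228 and 1259 on control at 14 months, 1212, 1238 and 1206 on Q10 and 1253, 1210 and 1447 on QH2. The groups overlapped, at -0.12 on Q10 (-0.28 to 0.04) and -0.03 on QH2 (-0.19 to 0.14). None of 19 other lipoprotein genes was called with diet in brain at 14 months.

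The effect of Q10 on Pltp at 14 months was then compared between tissues. It was 1.25 higher in liver than in heart (0.73 to 1.77, adjusted p = 0.0028) and 1.58 higher in liver than in brain (1.06 to 2.10, adjusted p = 0.00014), with 2.82% and 4.22% of all probe sets called. Against kidney it was 0.88 higher (0.36 to 1.40) and did not pass (adjusted p = 0.060, 1.83% called), while the 2nd probe set passed at 1.502 (adjusted p = 0.0055). For Apom, Q10 gave 0.97 more in liver than in kidney (-0.51 to 2.45), which did not pass (adjusted p = 0.60). This fit shares 1 spread over the 4 tissues. Apom was dim and scattered in heart (0.596 to 9.19) and brain (0.421 to 13.3), and both enter that spread. The interval is therefore wide, and the test cannot decide whether the fall of Apom differed between liver and kidney.

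**Figure D4:**
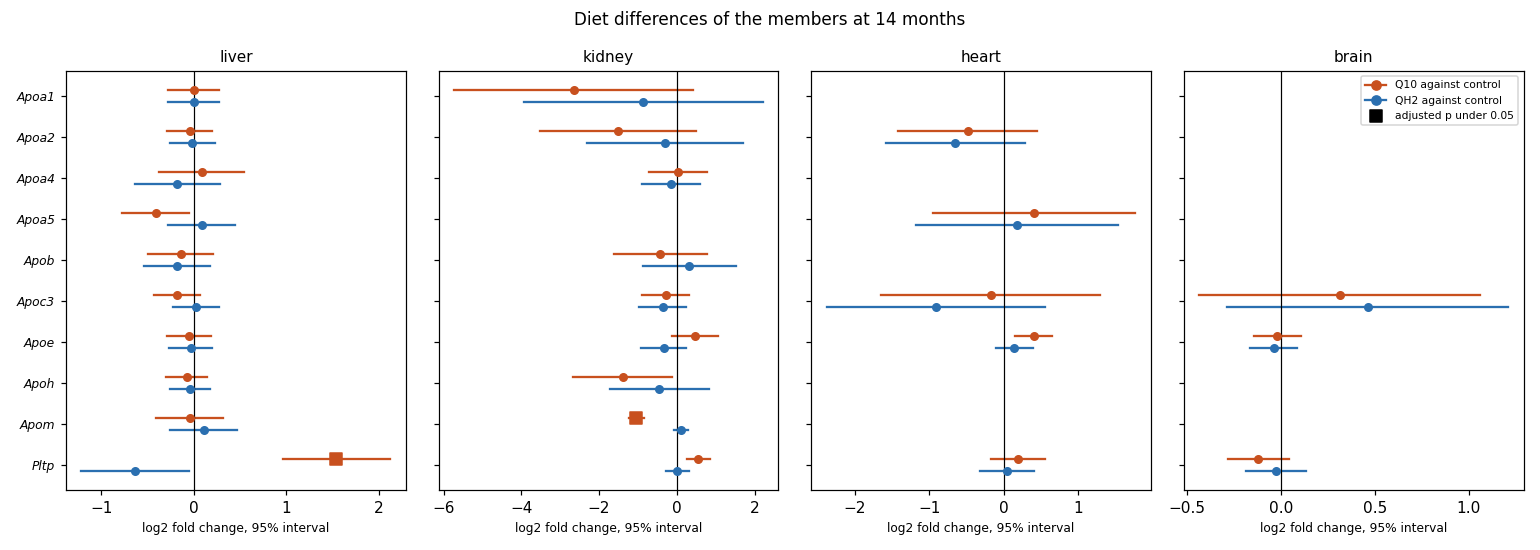
Log2 difference from control at 14 months for Q10 and QH2 with 95% intervals, for each member that passed the filter in the 4 tissues (squares mark adjusted p under 0.05, and the axes of the panels differ). Pltp in liver at 1.54 and Apom in kidney at -1.04, both on Q10, are the calls.

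QH2 and Q10 differ by reduction of the quinone ring, and they were given at the same dose and for the same times. Members were compared between them in 54 tests, 27 at each time, with p adjusted over all probe sets of a comparison, and 3 passed: Pltp of the liver (-2.17), Apom of the kidney (1.15) and Pltp of the kidney (-0.53), all at 14 months. Those comparisons called 9.74% of all probe sets in liver and 6.04% in kidney. At 6 months no member passed in any tissue, where 0.292% of all probe sets were called in kidney and the values for liver, heart and brain are given above. The half-width of the 95% interval of a member's difference had a median of 0.16 in brain, 0.32 in liver, 0.74 in kidney and 0.93 in heart. In kidney it reached 3.08 for the dimmest member, so a difference of several-fold in the dim members would not have shown.

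Between 6 and 14 months Pltp was the member that rose across tissues. In brain it was 883, 884 and 952 on control at 6 months and 1495, 1228 and 1259 at 14 months, without overlap. On Q10 it went from 949, 853 and 938 to 1212, 1238 and 1206, and on QH2 from 854, 849 and 872 to 1253, 1210 and 1447. The rise was 0.55 ± 0.08 on control (adjusted p = 3.78e-05), 0.42 on Q10 (adjusted p = 0.00059) and 0.60 on QH2 (adjusted p = 1.39e-05), each kept in 6 of 6 fits without 1 array.

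Pltp was 1 of 3 members called in each of these comparisons, and they called 32.8%, 28.6% and 34.9% of all probe sets in brain, so a call with time was common there. Apoe of the brain was at -0.0006 on control (-0.13 to 0.12). Astrocyte markers moved with Pltp: 6 of 8 were called higher on each diet, with 1 lower on control and on QH2, and the summed signal on control went from 16914 to 17099 at 6 months to 19284 to 20549 at 14. Oligodendrocyte markers were called higher in 3, 3 and 4 of 4 on control, Q10 and QH2, with sums on control of 9607 to 12755 and then 13209 to 15056. Of 12 macrophage markers 4, 5 and 3 were called higher and 1 lower on control, with overlapping sums there (3269 to 3714 and 3495 to 3950), and Lyz2 had the largest rise on control (1.44). Other lists went down on control: microglia sums were 2539 to 2891 at 6 months and 2265 to 2537 at 14. Neuronal sums were 21710 to 25056 and then 21054 to 21432. The microglia sums overlapped between times on Q10 and on QH2. The part of any of these cells in the rise of Pltp was not tested.

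In kidney Pltp rose on all 3 diets by its brighter probe set. On control it was 171, 220 and 170 at 6 months and 295, 276 and 321 at 14 months, on Q10 253, 256 and 217 and then 429, 414 and 464, and on QH2 194, 269 and 178 and then 327, 280 and 296. No pair of groups overlapped. The rise was 0.67 (adjusted p = 0.0091), 0.85 (adjusted p = 0.00039) and 0.51 (adjusted p = 0.029). That on QH2 was lost without QH2 6-month array 1 (0.45, adjusted p = 0.096) or 3 (0.39, 0.14) or 14-month array 1 (0.45, 0.069), 2 (0.56, 0.056) or 3 (0.52, 0.077). Without the 3 arrays of highest albumin signal those on control (0.62, adjusted p = 0.085) and QH2 (0.45, adjusted p = 0.093) were not called. That on QH2 was also lost with no intensity trend (adjusted p = 0.051) and with only the groups compared (0.10), and the 2nd probe set did not pass on QH2 (0.66, adjusted p = 0.079).

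Apom of the kidney fell with time on all 3 diets: by 0.62 on control (adjusted p = 0.0011), by 1.64 on Q10 (adjusted p = 9.57e-09) and by 0.37 on QH2 (adjusted p = 0.013), with no overlap between times. The fall on QH2 was lost without QH2 6-month array 3 (-0.33, adjusted p = 0.061) or 14-month array 2 (-0.28, adjusted p = 0.079), and with only the groups compared (adjusted p = 0.072). The 2nd probe set did not pass on QH2 (-0.32, adjusted p = 0.22). With these, 3 of 9 members were called on control, 3 on Q10 and 2 on QH2, beside 9.38%, 28.2% and 10.2% of all probe sets. Proximal tubule markers were called lower in 1 of 6 on control, 5 of 6 on Q10 and 0 of 6 on QH2, and macrophage markers higher in 4 of 12, 9 of 12 and 0 of 12. Their part was not tested.

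The third member called with time in kidney was Apoh on control and Apoe on Q10. Apoh was 20.3, 3.52 and 3.77 at 6 months and 75.0, 14.6 and 23.6 at 14 months, an overlap of dim signals with a difference of 1.99 (adjusted p = 0.048). It was lost without control 6-month array 2 (1.61, adjusted p = 0.15) or 3 (1.65, 0.18) or 14-month array 1 (1.34, 0.25) or 3 (2.16, 0.082). It was also lost with an offset of 16 (0.99, 0.063), no filter (0.069), no intensity trend (0.069), array weights (1.77, 0.055), only the groups compared (0.095) and without the 3 kidneys of highest albumin signal (2.05, 0.056). Apoe on Q10 was 1139, 933 and 925 at 6 months and 978, 3323 and 2018 at 14 months, overlapping, at 0.91 (adjusted p = 0.022). It was lost without Q10 6-month array 2 (0.87, adjusted p = 0.064) or 3 (0.86, 0.066) or 14-month array 2 (0.50, 0.12) or 3 (0.86, 0.065), and with only the groups compared (adjusted p = 0.11). On control Apoe was 657, 864 and 770 and then 1493, 1219 and 1388, without overlap, at 0.84, and did not pass (adjusted p = 0.065).

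In liver Pltp rose with time on control, by 0.97 ± 0.28 (adjusted p = 0.038), and on Q10, by 2.70 (adjusted p = 9.07e-05), and was -0.25 on QH2 (-0.83 to 0.33, adjusted p = 0.74). It was the 1 member of 10 called on control and on Q10, beside 7.36% and 12.5% of all probe sets, and 0 of 10 were called on QH2 beside 2.35%. The control livers did not overlap between times. That call was lost in 5 of 6 fits without 1 array: control 6-month array 1 (0.83, adjusted p = 0.15), 2 (1.05, 0.065) or 3 (1.04, 0.059), or 14-month array 1 (0.98, 0.096) or 3 (0.81, 0.17). It was also lost as deposited (1.04, adjusted p = 0.21), with no intensity trend (0.087) and with the Actb covariate (0.87, 0.10), and the rise on Q10 was lost with only the groups compared (adjusted p = 0.061). The 2nd probe set gave 1.13 (adjusted p = 0.033). In that comparison 0 of 14 macrophage markers were called, with a median of -0.54.

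Apoa4 of the liver gave different answers by probe set. Its brighter one was 836, 921 and 1132 on control at 6 months and 1044, 1476 and 1335 at 14 months, overlapping, at 0.41 (adjusted p = 0.29). The 2nd was 375, 473 and 666 and then 874, 1313 and 1325, without overlap, and was called at 1.23 (adjusted p = 0.0097). Both rose in the mean, and only the 2nd passed.

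In heart Pltp was 594, 576 and 625 on control at 6 months and 782, 1000.2 and 838 at 14 months, without overlap, at 0.54 (0.18 to 0.90), and did not pass (adjusted p = 0.11, 0 of 5 members beside 2.05% of all probe sets). On Q10 it was 661, 765 and 574 and then 1026, 842 and 1134, at 0.58 (adjusted p = 0.034), the 1 member of 5 called beside 10.6%. It was lost without Q10 6-month array 1 (0.58, adjusted p = 0.081) or 3 (0.48, 0.15) or 14-month array 1 (0.56, 0.071) or 3 (0.49, 0.14), with no intensity trend (adjusted p = 0.0997) and with the Actb covariate (0.49, 0.086). On QH2 it was 675, 587 and 639 and then 1254, 890.3 and 640.1, overlapping, at 0.50 (adjusted p = 0.14, 2.29%). On Q10, 6 of 12 macrophage markers were called higher with time in heart. The summed signal of 5 adipocyte markers lay between 4260 and 4888 on the 9 hearts at 6 months. It lay between 5215 and 7547 on the 9 at 14 months. Of 4 markers tested, 1 was called on control, 1 on Q10 and 0 on QH2. Fabp4 made up most of that sum. In the comparison of tissues its mean signal in heart was 4535. Adipoq was at 68.3, Retn at 32.9, Ucp1 at 11.9 and Lep at 4.63. The sum therefore follows mainly Fabp4 and not the adipocyte list as a whole. The part of macrophages and adipocytes in the rise of Pltp was not tested.

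**Figure D5:**
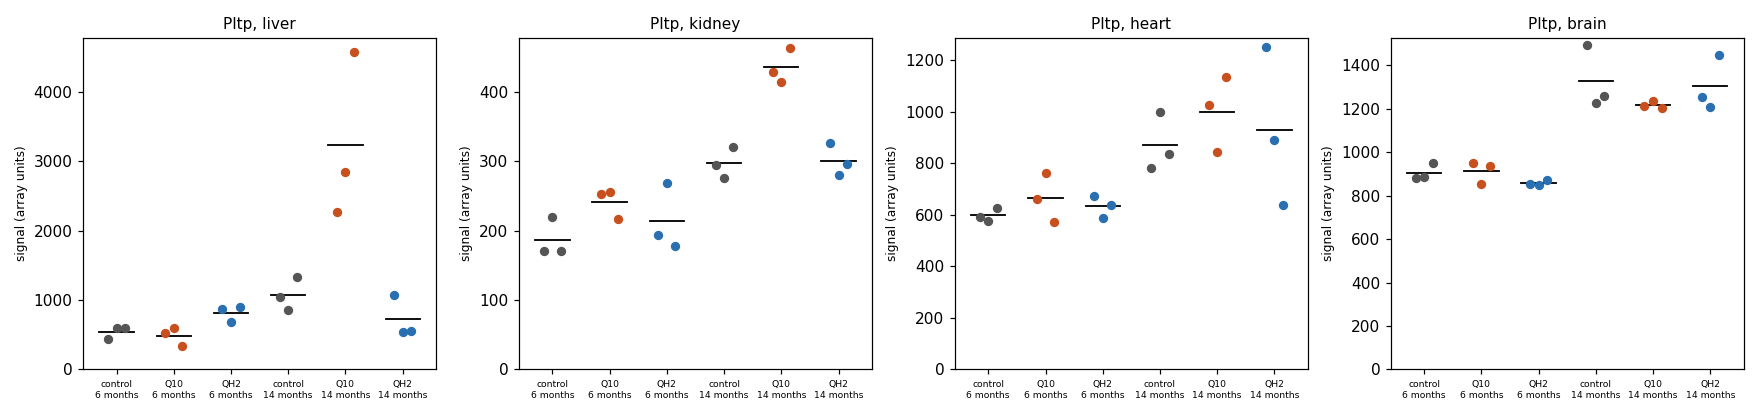
Signal of Pltp on every array (points, line at the mean of 3) in the 6 groups of each tissue, on the scale of that tissue. The 14-month groups lie above the 6-month groups in brain and kidney on each diet, and in liver the Q10 group at 14 months stands apart.

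Signals as deposited were higher at 14 than at 6 months over most probe sets: the median difference over all was 0.68, 0.96 and 0.75 in heart on control, Q10 and QH2, 0.44, 0.41 and 0.39 in kidney, and 0.33, 0.48 and 0.45 in brain, against -0.05 to 0.02 after the common distribution was set. The rises of Pltp are relative to that shift. As deposited they were 1.00 in brain, 1.10 in kidney and 1.24 in heart on control, above the shift in each. The fall of Apom in kidney kept its direction on each diet as deposited, at -0.27, -1.36 and -0.14, and was called there on Q10 only (adjusted p = 0.45, 0.00023 and 0.73).

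Other genes of the pathway were also called with time. In brain 9 of 19 were called on control, 6 higher and 3 lower, beside 32.8% of all probe sets. They included Apod (0.80), an apolipoprotein of glia, the exporter Abca1 (0.63), which loads cholesterol onto Apoe, and Apoc1 (1.92), which were higher, and the sorting receptor Sort1 (-0.50), Lpl (-0.54) and the receptor Scarb1 (-0.51), which were lower. On Q10 8 were called and on QH2 10 (28.6% and 34.9% of all), with Apod at 0.92 and 0.82, Abca1 at 0.55 and 0.72 and Apoc1 at 1.95 and 2.09. In kidney 3 of 23 were called on control (9.38% of all), Apoc2 (2.63, means 24.9 and 3.41) and Abcg1 (0.84) higher and Cideb (-0.44), a protein of lipid droplets, lower. On Q10 6 were called (28.2% of all), among them Cideb (-0.61), Sar1b (-0.28) and Angptl4 (1.503), and on QH2 1 (10.2% of all), Apoc1 (1.81). Adipocyte marker sums of the QH2 kidneys were 801 to 3745 at 6 months and 7838 to 9482 at 14 months, and their part was not tested.

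In heart 0 of 20 were called on control, 6 on Q10 and 1 on QH2, beside 2.05%, 10.6% and 2.29% of all. Angptl4 was 3.06 higher with time on Q10 (means 135 and 15.9, adjusted p = 0.00041) and 1.72 lower on QH2 (means 25.8 and 106, adjusted p = 0.050). In liver 1 of 26, Pon3 (-0.55), was called on control beside 7.36% of all, and 3 on Q10 beside 12.5%, Vldlr (-1.203), Abcg1 (1.18) and Lpl (1.10). Of the regulators in liver, Ppara was 1.09 higher with time on control, Srebf1 was 1.09 lower on Q10 and 1.22 higher on QH2, and Onecut1 was 1.51 lower on Q10.

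Genes most like a member over the 18 livers are given by Pearson's r of the log2 signal. They share arrays, groups and normalisation, so these are descriptions. For Pltp they were Ptpn1 (0.90) and Zeb2 (0.90), for Apoa5 Mme (0.94) and Dnajc28 (0.93), for Apom Trappc4 (0.88) and Rhobtb3 (0.86), for Apob Atp1b1 (0.92) and for Apoc3 Ilvbl (0.92). No gene of the lipoprotein list was among these.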

How the data were processed

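Total RNA of 4 tissues from 3 mice a group was hybridised to 72 arrays. The values are intensities, 1 linear signal per probe set, deposited by the authors and made with GCOS per the submitters' processing notes. The GCOS version was not given in the sources used here. Control probe sets, 64 in all, were left out. Arrays were quantile normalised within a tissue (over all 72 for tissue comparisons), an offset of 1 was added and values were put on the log2 scale. Probe sets with a mean above the 40th percentile were fitted with limma 3.58.1 in R 4.3.3, with 1 mean per group and an intensity trend. P-values were adjusted by Benjamini and Hochberg over the 27022 probe sets of a comparison. Of the probe sets 34945 had 1 symbol, 932 several and 9160 none. Steps were tested on simulated data.

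The members and lists were chosen with earlier results of these data known. All 10 members are named; of other listed genes, those called (at most 6 a comparison, by p) or else the 2 of smallest p. Alternatives were the values as deposited, trimmed mean scaling, an offset of 16, no filter, no trend, array weights, the Actb ratio, fits of only the groups compared, a replicate block and each array left out. Exact permutation of 3 against 3 arrays was not used, since its smallest p is 0.1.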

Additional observations from a re-analysis of the deposited data

Results flagged for a closer look

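The effect of Q10 on Pltp in liver differed between durations, by 1.73 on the log2 scale (14 minus 6 months, limma, adjusted p = 0.0265), and that on Apom in kidney by -1.02 (adjusted p = 0.0050). All 3 Q10 arrays lay outside the controls at 14 months in both cases and overlapped them at 6 months. The effect of Q10 on Pltp at 14 months differed between tissues, by 1.25 for liver minus heart (adjusted p = 0.00276) and 1.58 for liver minus brain (adjusted p = 0.000139). Groups of 3 are too small for a test of outlying arrays.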

How the results depend on the processing

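Counts here are calls of members summed over the comparisons of a tissue, so 1 gene can count more than once. Calls over all probe sets were counted on the main scale, as deposited and with trimmed mean scaling. For the other settings no such share stands beside the counts, so they are not read as a result about the members. With 2 calls in liver diet comparisons, array weights gave 7, the Actb covariate 0 and fits of only the groups compared 0. In liver with time (2 called) the values as deposited gave 1, no trend 1, weights 4, the Actb covariate 1 and only the groups compared 1. As deposited, 944, 1036 and 40 of all probe sets were called in liver with time on control, Q10 and QH2, against 1988, 3370 and 634 on the main scale. In kidney with diet (3 called) the values as deposited gave 1, weights 5 and only the groups compared 0, and with time (8 called) the last gave 5. As deposited, kidney at 14 months had 0 of all probe sets called for Q10 against control and 62 for QH2 against Q10. On the main scale these were 181 and 1633. In heart with diet (0 called by limma) the values as deposited gave 1 and weights 1. As deposited, 478 of all probe sets were called in heart for Q10 against control at 14 months, against 0 on the main scale. In heart with time (1 called) the values as deposited gave 9, no trend 0, the Actb covariate 0 and only the groups compared 2. As deposited, 11796, 17489 and 13804 of all probe sets were called there on control, Q10 and QH2. On the main scale these were 554, 2874 and 619. Leaving out each array in turn gave 2 to 4 calls with diet and 1 to 4 with time in liver, 2 to 5 and 5 to 9 in kidney, 0 and 0 to 3 in heart, and 0 and 3 in brain. Pltp in liver on Q10 at 14 months was 1.77 with the Actb covariate (adjusted p = 0.20), 1.54 with only the groups compared (0.084) and 1.26 to 1.76 leaving out each array. Apom in kidney was -1.22 as deposited (adjusted p = 0.23), -1.04 with only the groups compared (0.096) and -1.09 to -0.99 leaving out each array. Apoa5 in liver, QH2 minus Q10, was -0.0024 with the Actb covariate.

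A pair of alternatives was chosen after seeing the data. Without Q10 14-month arrays 2 and 3 of the liver that group is 1 array, assumed to vary like the others, so no test was read from it. Array 1 gave 1.11 for Pltp, 0.031 for Apoa5 and 0.012 for Apoc3 against control. A turned sign there says nothing of stability. Without the 3 kidneys of highest albumin signal 5 calls were made with time. With a replicate block the counts of calls did not change, and Pltp in liver was 1.54 (adjusted p = 0.0056) and Apom in kidney -1.04 (adjusted p = 0.00014). Within a tissue, same-numbered arrays of different groups did not deviate together (median r -0.007 to 0.005), so the numbers were not taken as pairs there. Between tissues this was not tested, and the fit treats arrays as separate. B cell marker sums on Q10 14-month arrays 1, 2 and 3 were 195, 2890 and 636 in liver and 180, 1646 and 1673 in kidney. They were 81.2, 1004 and 1772 in heart and 50.8, 197 and 101 in brain, lowest on array 1 in each tissue. Between tissues, leaving out replicate 1 turned Apoa2 in kidney minus heart from 0.54 to -0.096. Trimmed mean scaling turned the sign of 4 of 60 tissue differences of members, 0 of them called on the main scale. It lost 2 calls and gained 1. Calls of other lipoprotein genes in heart with time went from 7 to 38 as deposited. Calls over all probe sets rose there too, as given above, at median differences over all of 0.68, 0.96 and 0.75. Fewer samples are fitted where only the groups compared enter; for the other settings the cause was not tested.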
